A study of Mus musculus with 401 samples.

Results

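DNA replication runs through ordered steps that a shared set of proteins carries out in every dividing cell. In G1 phase the origin recognition complex (ORC) marks the origins, and CDC6 and CDT1 load the MCM2-7 helicase on them, a step called licensing. In S phase MCM10, CDC45 and the GINS complex switch the helicase on, primase and DNA polymerase alpha start each strand, the replication factor C (RFC) clamp loader places the PCNA clamp that holds polymerases delta and epsilon, replication protein A (RPA) covers single-stranded DNA, FEN1 and LIG1 join the pieces of the lagging strand, and ribonucleotide reductase makes the deoxynucleotides. Fully grown oocytes rest in prophase of meiosis and copy no DNA before fertilization, so that replication transcripts in them belong to the maternal store, whereas the cumulus cells around them can still divide.

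The genes described here are 39 such factors, fixed by their names and not by any measured value, among 43633 genes with a row in either count table. They were grouped by role into 6 subunits of ORC, 3 licensing and initiation factors (Cdc6, Cdt1 and Mcm10), 6 subunits of the MCM2-7 helicase, 5 genes of CDC45 and GINS, 6 polymerase and primase subunits, 6 genes of the clamp and its loader, 3 subunits of RPA, 2 genes of lagging-strand maturation (Fen1 and Lig1) and 2 of ribonucleotide reductase (Rrm1 and Rrm2). All 39 had a row in both tables and passed the filter on low counts in both cell types.

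Single oocytes at the germinal vesicle stage and pools of the cumulus cells of the same complexes had been taken from fully grown follicles of female B6D2F1 mice, first-generation hybrids of C57BL/6 and DBA/2, and profiled by RamDA-seq, which copies total RNA along the whole transcript. The first set of samples held young mice of 2 months (2 mouse labels), middle mice of 9 months (4), old mice of 14 months (2, of which 1 label joins 2 mice), all fed ad libitum, and CR mice of 9 months under calorie restriction (3). The second set held mice fed ad libitum at 2 months (2mo, 5 mice), 4 months (4mo, 8), 9 months (9mo, 4) and 14 months (14mo, 5) whose ovaries had been stimulated for hyperovulation, and mice of 2 months without that hormone treatment (2mo_noH, 8). The first set, too, was taken after hyperovulation by the methods of the study. Stimulation was by equine chorionic gonadotropin or CARD HyperOva, and the sources used here do not say which mouse received which. The cumulus samples are pools, so that fewer dividing cells and less transcript per cell cannot be told apart.

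In all, 399 of 401 libraries were used. Each library was correlated, on log-scaled RPKM of genes found in at least 5 libraries, with the median oocyte and cumulus profiles of its set. All lay nearer to their labelled cell type with 1 exception, a middle oocyte library (r = 0.64 with oocytes and 0.90 with cumulus cells). It was left out with the cumulus library of its complex. Libraries of the same mouse label were summed (1 to 13 per cell type), and the mouse was the unit of every test. Levels are given as mean ± SD over mice in CPM, counts scaled to a common library size with factors from the trimmed mean of M values (TMM), within each set and cell type, so that CPM are not compared across sets. A gene was called where edgeR's quasi-likelihood test, adjusted over all genes tested, passed a false discovery rate of 5%, and adjusted p below is that value. Differences are on the log2 scale with the standard error (SE) of the fit, and the p-values measure the spread between mouse labels. Median totals per library ranged from 2209914 to 3578882 counts over the groups of first-set oocytes, from 1091806 to 2019007 over first-set cumulus cells, from 1986202 to 2270752 over second-set oocytes and from 854688 to 883093 over second-set cumulus cells, with the CR libraries the deepest in both cell types of the first set. The members had a median of 164 counts per library in first-set oocytes, 75 in first-set cumulus cells, 132 in second-set oocytes and 43 in second-set cumulus cells. These are rounded counts. Over all genes 36.8% of the nonzero deposited counts of the first set and 35.1% of the second were not whole. Whether reads were shared between the members and other genes was not examined.

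Many replication genes carry E2F elements close to their start sites, and the promoters of a few members that recur below are shown for this reason. RefSeq promoter windows of 250 bases before to 50 bases after the start (GRCm38.p6) were found for 32 of the 39 members. The letters TTTCCCGC, TTTCGCGC, TTTGCCGC or TTTGGCGC, on either strand, occurred in a window of 13 of these 32 genes (40.6%), compared with 704 of all 27025 genes in the table (2.60%). The 13 were Cdc6, Cdt1, Gins3, Lig1, Mcm3, Mcm5, Mcm6, Mcm7, Orc1, Orc3, Pola1, Pold1 and Rfc3. A CCAAT box on either strand was present in 22 of 32 (68.8%), compared with 41.1% of all genes, and the cell cycle homology element TTTGAA or TTCGAA in 6 of 32 (18.8%), compared with 21.7%. Below, the 250 bases before the start are printed 5′ to 3′ on the strand of the gene, with matches to the E2F letters and to CCAAT in capitals. Orc1 (chr4:108579204-108579453, plus strand), Mcm5 (chr8:75109259-75109508, plus strand), Rfc3 (chr5:151651209-151651458, minus strand), Orc2 (chr1:58505110-58505359, minus strand) and Rrm2 (chr12:24708004-24708253, plus strand) are shown.
Orc1: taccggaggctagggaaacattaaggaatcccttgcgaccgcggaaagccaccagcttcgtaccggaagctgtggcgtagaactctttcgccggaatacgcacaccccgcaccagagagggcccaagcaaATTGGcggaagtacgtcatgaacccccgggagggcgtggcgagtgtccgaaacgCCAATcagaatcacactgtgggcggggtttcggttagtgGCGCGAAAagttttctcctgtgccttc
Mcm5: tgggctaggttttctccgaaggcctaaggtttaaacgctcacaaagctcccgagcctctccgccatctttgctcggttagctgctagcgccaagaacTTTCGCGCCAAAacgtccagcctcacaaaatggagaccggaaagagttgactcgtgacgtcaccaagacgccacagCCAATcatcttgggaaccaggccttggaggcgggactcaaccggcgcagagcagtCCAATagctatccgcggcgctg
Rfc3: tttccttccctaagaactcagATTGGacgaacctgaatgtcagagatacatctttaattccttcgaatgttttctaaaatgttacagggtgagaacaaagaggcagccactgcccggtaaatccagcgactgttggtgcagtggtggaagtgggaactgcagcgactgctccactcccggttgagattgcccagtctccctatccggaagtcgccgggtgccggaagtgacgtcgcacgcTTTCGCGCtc
Orc2: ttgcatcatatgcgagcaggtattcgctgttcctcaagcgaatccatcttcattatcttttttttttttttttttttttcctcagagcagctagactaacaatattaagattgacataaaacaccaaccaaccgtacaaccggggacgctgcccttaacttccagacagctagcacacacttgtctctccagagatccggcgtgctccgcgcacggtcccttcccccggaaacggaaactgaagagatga
Rrm2: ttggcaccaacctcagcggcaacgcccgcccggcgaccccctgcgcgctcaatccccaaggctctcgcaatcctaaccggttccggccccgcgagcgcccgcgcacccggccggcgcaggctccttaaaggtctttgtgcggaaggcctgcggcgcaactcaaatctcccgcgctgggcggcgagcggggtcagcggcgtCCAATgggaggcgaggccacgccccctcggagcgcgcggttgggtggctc
Orc1 and Rfc3 held 1 E2F match each and Mcm5 2 that overlap, whereas Orc2 (the first of 2 windows in the table) and Rrm2 held 0 in these bases. Orc1 and Mcm5 each had 2 CCAAT boxes and Rfc3 and Rrm2 1 each.

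To compare levels between genes, the deposited RPKM values (reads scaled for gene length and library size) were averaged over the libraries of each mouse at 2mo (n = 5). In oocytes the helicase subunit Mcm4 was at 73.9 ± 3.0 RPKM, Orc5 at 69.6 ± 3.0 and Mcm5 at 59.6 ± 3.9, followed by the licensing factor Cdt1 at 47.8 ± 3.1 and the large RPA subunit Rpa1 at 44.3 ± 2.0. In cumulus cells the small subunit of ribonucleotide reductase, Rrm2, was at 73.6 ± 12.4 RPKM, Mcm3 at 65.6 ± 3.6, Mcm5 at 64.6 ± 9.9, the clamp gene Pcna at 50.3 ± 7.5 and Mcm6 at 44.8 ± 8.7. Mcm5 thus ranked 3 of 39 in both cell types, whereas Orc5 ranked 2 in oocytes and 36 in cumulus cells, at 4.77 ± 1.25 RPKM. The low end differed as well. Pold1, the catalytic subunit of polymerase delta, was the lowest member in oocytes at 2.33 ± 0.49 RPKM, with Rrm1 at 3.36 ± 0.38 and Rfc4 at 3.51 ± 0.83 above it. In cumulus cells the lowest were Gins3 at 1.84 ± 0.34, the primase subunit Prim1 at 3.26 ± 0.73 and Gins2 at 3.34 ± 0.56 RPKM. Subunits of one complex were not at one level. Within ORC, oocytes ranged from 8.68 RPKM for Orc3 to 69.6 for Orc5 and cumulus cells from 4.77 for Orc5 to 12.7 for Orc4, and within RFC oocytes ranged from 3.51 for Rfc4 to 17.3 for Rfc1.

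**Figure D1:**
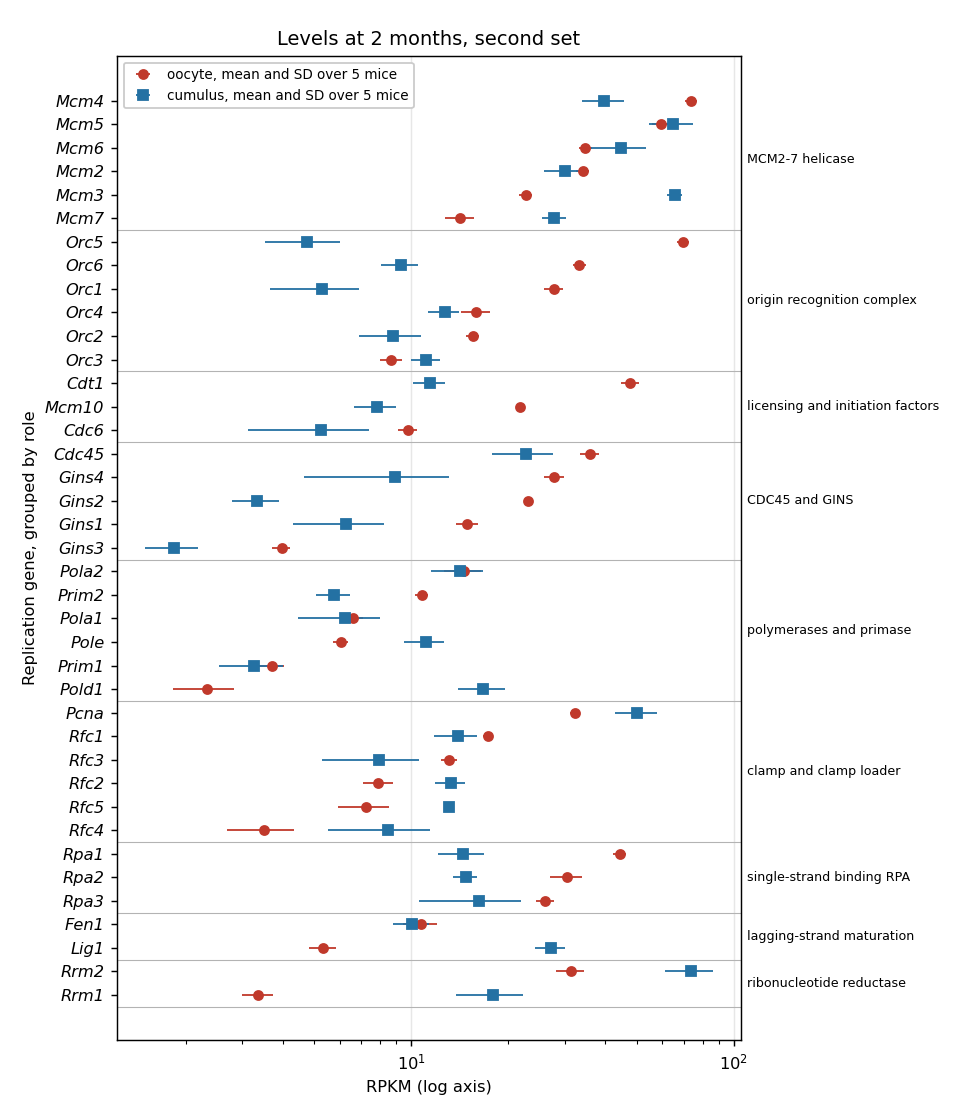
Deposited RPKM of the 39 members (x axis, log scale) in oocytes and cumulus cells at 2mo, ordered by role, with points at the mean and bars at the SD over 5 mice. ORC genes other than Orc3 and the licensing and GINS genes lie to the right in oocytes, as for Orc5 at 69.6 against 4.77 RPKM, and ribonucleotide reductase to the right in cumulus cells, as for Rrm2 at 73.6 against 31.3 RPKM.

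The same cell types were then tested against each other at 2mo, on counts scaled together, so that the CPM here differ from those given elsewhere. Of the 39 members, 35 were called, 26 higher and 9 lower in oocytes, in a comparison in which 72.4% of 33123 genes were called, 34.2% higher and 38.2% lower. The median difference of the members was 0.79 on the log2 scale, against -0.06 over all genes. ORC genes were higher for 5 of 6 subunits, and the licensing and initiation factors (3 of 3), CDC45 and GINS (5 of 5) and RPA (3 of 3) were called higher throughout. The MCM2-7 helicase split into 3 subunits higher (Mcm2, Mcm4 and Mcm5) and 2 lower (Mcm3 and Mcm7), the polymerases and primase into 4 higher and 2 lower, the clamp and its loader into 2 and 2, and lagging-strand maturation into 1 and 1. Both ribonucleotide reductase genes were lower in oocytes.

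The largest difference was that of Orc5, a subunit of the ORC core. The 5 mice were at 477, 493.3, 511, 542 and 547 CPM in oocytes and at 18.8, 21.3, 22.1, 29.1 and 36.3 CPM in cumulus cells, with no overlap. The difference was 4.34 ± 0.19 (SE), or 20.2-fold. Gins2 followed, at 114 ± 12 CPM in oocytes and 11.8 ± 2.1 in cumulus cells (3.29 ± 0.17). Orc1, the largest ORC subunit, whose promoter is shown above, was at 116 ± 12 and 15.5 ± 4.5 CPM (2.90 ± 0.18). Cdt1 was at 181 ± 22 and 30.8 ± 3.7 CPM (2.55 ± 0.18), Orc6 at 98.6 ± 10.5 and 20 ± 2.8 (2.29 ± 0.13) and Gins4 at 44.9 ± 4.3 and 10.3 ± 5.2 (2.12 ± 0.21). All 6 act at the origin, licensing and helicase-activation steps.

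In the other direction, Pold1 was at 9.46, 11.6, 14.5, 15.2 and 17.4 CPM in the oocytes of the 5 mice and at 52.5, 62.6, 74.8, 75.3 and 86.3 CPM in their cumulus cells. It was lower by 2.36 ± 0.21 on the log2 scale (log2 difference -2.36), a 5.14-fold difference with no overlap. Rrm1, the large subunit of ribonucleotide reductase, was at 44.4 ± 3.1 CPM in oocytes and 171 ± 40 in cumulus cells (-1.95 ± 0.13), and the DNA ligase gene Lig1 at 27.4 ± 3.3 and 100.2 ± 11.3 (-1.86 ± 0.13). Mcm3 was at 102 ± 9.4 and 211 ± 16 CPM (-1.04 ± 0.14), Rfc4 at 6.42 ± 1.51 and 11.5 ± 3.9 (-0.83 ± 0.20) and Rrm2 at 104 ± 9.7 and 174 ± 33 (-0.74 ± 0.15). The highest adjusted p among these 12 members was 0.000147 (Rfc4), and Rfc2, Pcna, Orc3 and Mcm6 were not called. Without TMM factors, which moved the median of all genes by -0.48, 33 members were called. Mcm6 and Orc3 (0.10 and 0.13 with the factors) turned sign and were called lower, and Pcna and Rfc2 were also called. Mcm5 turned sign and lost its call, and Mcm2, Fen1, Pola1, Pola2 and Prim1 lost theirs without a change of sign. The splits within the helicase, polymerase, clamp and lagging-strand roles thus depended on the scaling. With DESeq2 (a shift of -0.31) Mcm6 turned sign without being called, and Mcm5 was not called. Cumulus lysates had been diluted further than oocyte lysates and received a reverse transcription mix of adjusted composition, so that cell type and preparation cannot be told apart.

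Further genes of the pathway were counted by list. Of 30 other replication genes (helicase loading kinases, fork protection, alternative loaders and others), 22 were called higher and 1 lower in oocytes, and of 12 genes for deoxynucleotide and chromatin supply in S phase 11 were called higher. Of 19 E2F, RB and G1/S cyclin genes, 6 were higher and 11 lower, and of 15 mitotic proliferation markers 8 were higher and 5 lower.

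Levels over the groups follow by role, in the order young, middle, old and CR for the first set and 2mo, 4mo, 9mo, 14mo and 2mo_noH for the second, with the numbers of mice given above. Orc1 in oocytes stood at 79 ± 1.78, 79.7 ± 7.08, 83.2 ± 18.5 and 83 ± 5.31 CPM over the first set and at 96.2 ± 6.56, 99.8 ± 3.14, 95.6 ± 6.02, 102 ± 6.61 and 95.3 ± 1.89 CPM over the second. Orc1 in cumulus cells stood at 12.1 ± 0.926, 10 ± 2.51, 12.1 ± 1.72 and 13.2 ± 3.95 CPM over the first set and at 18 ± 5.26, 19.7 ± 4.64, 17.1 ± 2.92, 16.9 ± 5.47 and 18 ± 8.35 CPM over the second. In the second set the SD within a group was a larger part of the mean in cumulus cells, where Orc1 was low, than in oocytes. No difference of Orc1 between groups of a set was called by edgeR.

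Among the licensing factors, Cdc6 loads the helicase on the origins together with Cdt1. Cdc6 in oocytes stood at 46.8 ± 0.908, 60.6 ± 14.2, 51 ± 9.2 and 61.9 ± 4.84 CPM over the first set and at 50.8 ± 3.41, 52.1 ± 3.1, 52.4 ± 2.07, 54.5 ± 4.04 and 50.8 ± 4.77 CPM over the second. Cdc6 in cumulus cells stood at 27.8 ± 1.74, 32.5 ± 9.25, 34.3 ± 1.14 and 43.1 ± 6.68 CPM over the first set and at 27.8 ± 11.8, 23.4 ± 6.63, 22.1 ± 4.03, 26.3 ± 4.42 and 21.5 ± 10 CPM over the second. CR cumulus cells held the highest first-set mean. Cdt1, which brings the helicase, had SDs in old and middle oocytes well above those in young ones. Cdt1 in oocytes stood at 164 ± 0.47, 142 ± 26.8, 109.7 ± 42 and 108 ± 17 CPM over the first set and at 150.2 ± 10.3, 157 ± 9.73, 146 ± 3.77, 146 ± 4.73 and 152 ± 12.9 CPM over the second. Cdt1 in cumulus cells stood at 27.1 ± 2.8, 32 ± 3.0, 29.7 ± 0.47 and 46.8 ± 6.06 CPM over the first set and at 35.8 ± 4.17, 30.4 ± 6.53, 30.4 ± 8.65, 36.5 ± 12.6 and 30.7 ± 11.1 CPM over the second. No group difference of Cdc6 or Cdt1 was called by edgeR.

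Of the helicase subunits, Mcm2, Mcm5 and Mcm6 are given in every group. Mcm2 in oocytes stood at 256 ± 14.2, 219 ± 48, 194 ± 52.6 and 216 ± 22.8 CPM over the first set and at 236 ± 10.2, 239 ± 12.3, 245 ± 7.16, 236 ± 13.2 and 236 ± 9.48 CPM over the second. Mcm2 in cumulus cells stood at 197 ± 5.04, 196 ± 22.1, 234 ± 15.3 and 265 ± 27.9 CPM over the first set and at 209.9 ± 33.6, 187 ± 47.5, 182 ± 20.7, 215 ± 50.1 and 150.1 ± 46.7 CPM over the second. In oocytes of the second set the Mcm2 means lay between 236 and 245 CPM, whereas in cumulus cells 2mo_noH was lowest and in the first set CR was highest. Mcm5 in oocytes stood at 287 ± 14.1, 226 ± 53, 205 ± 58.7 and 252 ± 25.5 CPM over the first set and at 238 ± 15.7, 244 ± 17.9, 223 ± 13.3, 234 ± 8.98 and 229.5 ± 11.5 CPM over the second. Mcm5 in cumulus cells stood at 237 ± 7.44, 221 ± 34.1, 265 ± 5.97 and 338 ± 60.2 CPM over the first set and at 258 ± 41.9, 212 ± 50.8, 219.7 ± 26.1, 284 ± 59.1 and 199 ± 57.9 CPM over the second. Mcm5 had the same lowest and highest cumulus groups as Mcm2. Mcm6 in oocytes stood at 159 ± 1.9, 155 ± 16.9, 145 ± 26 and 170.1 ± 14.5 CPM over the first set and at 161 ± 6.88, 166 ± 9.68, 164 ± 7.45, 163 ± 4.69 and 162 ± 10.3 CPM over the second. Mcm6 in cumulus cells stood at 259 ± 20, 217 ± 21, 257 ± 2.52 and 272 ± 8.57 CPM over the first set and at 210.5 ± 42.1, 194 ± 18.3, 204 ± 17, 203 ± 15.7 and 208 ± 24.1 CPM over the second. Mcm6 in cumulus cells was lowest in middle mice and differed little over the second set, and no difference of these subunits between groups was called by edgeR.

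Gins2 belongs to the GINS complex, which joins the helicase with CDC45. Gins2 in oocytes stood at 83.8 ± 4.82, 89.3 ± 7.97, 72.2 ± 12.2 and 69.6 ± 8.08 CPM over the first set and at 94.7 ± 3.41, 93.9 ± 1.55, 95.7 ± 5.24, 86.5 ± 2.43 and 93.8 ± 6.36 CPM over the second. Gins2 in cumulus cells stood at 11.8 ± 1.71, 14.1 ± 3.38, 15.6 ± 1.89 and 18.6 ± 1.97 CPM over the first set and at 13.7 ± 2.49, 11.6 ± 3.38, 10.7 ± 1.44, 14 ± 3.78 and 11.5 ± 4.48 CPM over the second. Its oocyte mean at 14mo was below the other second-set means. Against 2mo it was lower with no overlap, as were 240 of all 25850 genes. CR and old oocytes had lower means than middle and young ones. None of these differences was called by edgeR, whereas DESeq2 and the fit without TMM factors called Gins2 lower in CR than in middle oocytes. Pola1 encodes the catalytic subunit of polymerase alpha. Pola1 in oocytes stood at 53.7 ± 0.0804, 56.2 ± 3.79, 56.3 ± 6.12 and 59.7 ± 1.94 CPM over the first set and at 58.1 ± 4.61, 61.9 ± 4.09, 60.6 ± 2.74, 61.4 ± 2.8 and 62.9 ± 2.78 CPM over the second. Pola1 in cumulus cells stood at 81.2 ± 17.3, 69.4 ± 3.36, 78.5 ± 0.893 and 75.6 ± 9.18 CPM over the first set and at 55 ± 16.6, 51.5 ± 14.9, 57.3 ± 5.34, 54.5 ± 6.0 and 55.5 ± 16.6 CPM over the second. Its group means lay within 7 CPM of one another in oocytes of either set, and none of its differences was called.

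Pcna encodes the sliding clamp. Pcna in oocytes stood at 74 ± 7.83, 73.9 ± 5.02, 72.5 ± 6.31 and 76.1 ± 8.28 CPM over the first set and at 77.2 ± 3.02, 78.6 ± 4.84, 76.5 ± 2.31, 82 ± 7.4 and 75.1 ± 4.48 CPM over the second. Pcna in cumulus cells stood at 137 ± 3.75, 129 ± 12.9, 149 ± 1.6 and 146 ± 10.1 CPM over the first set and at 121 ± 19.5, 110.2 ± 17.1, 97.9 ± 3.05, 115 ± 29 and 108 ± 16.6 CPM over the second. None of its differences between groups was called. Rfc3 encodes a small subunit of the clamp loader. Rfc3 in oocytes stood at 40.9 ± 6.88, 43.8 ± 6.55, 47.8 ± 3.87 and 64.5 ± 6.23 CPM over the first set and at 47.4 ± 2.35, 45.5 ± 3.67, 46.5 ± 4.21, 41.1 ± 3.02 and 48.4 ± 2.59 CPM over the second. Rfc3 in cumulus cells stood at 44.2 ± 3.52, 37.6 ± 7.95, 41.2 ± 0.0192 and 53.4 ± 5.34 CPM over the first set and at 28.3 ± 9.36, 24.8 ± 5.42, 25.8 ± 7.95, 32.9 ± 3.43 and 24.2 ± 8.45 CPM over the second. CR was the highest first-set group in both cell types, and the difference from middle was called in oocytes, as described below. Lig1 seals the lagging strand. Lig1 in oocytes stood at 29.5 ± 0.132, 24.8 ± 4.76, 24.1 ± 2.32 and 26.1 ± 2.71 CPM over the first set and at 22.8 ± 2.03, 25.8 ± 3.4, 24.6 ± 4.46, 24.2 ± 3.0 and 23.6 ± 2.05 CPM over the second. Lig1 in cumulus cells stood at 145 ± 10.2, 146 ± 7.71, 146 ± 0.378 and 150.4 ± 7.15 CPM over the first set and at 117 ± 14, 114 ± 18.8, 117 ± 7.52, 118 ± 2.95 and 114 ± 20.9 CPM over the second. Its cumulus means ran from 145 to 150.4 CPM over the first set, and none of its differences was called. Rrm2 supplies deoxynucleotides in S phase. Rrm2 in oocytes stood at 90.5 ± 2.54, 89.2 ± 8.67, 94.2 ± 7.73 and 61.6 ± 2.23 CPM over the first set and at 86.9 ± 8.51, 86.5 ± 9.12, 88.1 ± 7.52, 87 ± 10.2 and 89.3 ± 6.91 CPM over the second. Rrm2 in cumulus cells stood at 163 ± 4.28, 152 ± 14.7, 177 ± 29 and 224 ± 15.6 CPM over the first set and at 203 ± 38.5, 157 ± 41.2, 145 ± 11.8, 194 ± 40.1 and 136 ± 27.6 CPM over the second. CR oocytes had the lowest Rrm2 mean of the first set while CR cumulus cells had the highest, and 2mo_noH cumulus cells had the lowest of the second.

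Which members changed with age was asked in both sets. In first-set oocytes, 0 of 39 members were called between middle and young (0% of 27124 genes called) and 0 between old and young (0%). DESeq2 called 0 members in each. At an unadjusted p under 0.05 there were 0 and 5 members, where 869 and 2693 of the 27124 genes were. The 5 were Orc3 (higher in old oocytes by 0.41 ± 0.17) and Cdt1 (-0.58 ± 0.25), Rpa1 (-0.51 ± 0.24), Rpa2 (-0.48 ± 0.21) and Fen1 (-0.47 ± 0.21), with adjusted p between 0.498 and 0.4999. With single libraries as units, the unit of the study, 12 members were called between old and young, where 17.7% of all genes were called (4809). Of these members 7 were lower (Cdt1, Rpa1, Rpa2, Mcm2, Mcm5, Mcm10 and Fen1) and 5 higher (Orc3, Orc4, Orc5, Orc6 and Prim1). The study reported fewer genes for this comparison, so that the fit here does not repeat its test. Cdt1 was at 163.8 and 164.4 CPM in the young labels and at 80.02 and 139 in the old ones, so that the 2 old labels stood far apart. In these oocytes 13 of 13 cumulus and granulosa markers stood higher in old than in young mice, with a median of 0.90. With the share of these markers as a covariate 0 members were called as well, and the median of the members was 0.06, against 0.03 without it. In first-set cumulus cells, 0 members were called between middle and young (0.00378% of 26461 genes) and between old and young (0.0113%), also with DESeq2 and at an unadjusted p under 0.05, where 1365 and 1011 of all genes were. There 30 of 39 members stood higher in old than in young mice, with a median difference of 0.12 against 0.03 over all genes, and 15 of 15 mitotic markers did so as well.

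In the second set, 0 members were called in oocytes at 4mo, 9mo or 14mo against 2mo, where 0%, 0.0658% and 0.221% of 25850 genes were called, and in cumulus cells 0 members were called where 0%, 0.0551% and 0.0514% of 27237 genes were. At an unadjusted p under 0.05 there were 2, 5 and 8 members in oocytes, where 1319, 1739 and 2583 of all genes were. In cumulus cells there were 2, 2 and 0 members, where 1660, 2124 and 2129 of all genes were. DESeq2 called 1 member, Pole in 14mo oocytes, where it called 186 of all genes, and 0 members in the other 5. These comparisons share their 2mo mice. In 14mo oocytes 2 members were higher at an unadjusted p under 0.05 (5.34% of all genes) and 6 lower (4.65%). The 6 were Rfc3, Rfc4, Gins1, Gins2, Cdc45 and Prim2, so that 3 of the 5 CDC45 and GINS genes were among them. The summed level of all 5 genes of this role was 245.8 ± 5.4 CPM at 2mo, 242.2 ± 7.6 at 4mo, 232 ± 5.5 at 9mo and 225 ± 7.7 at 14mo. The role was picked from these same values, so that its sum is no separate support. In cumulus cells the members at 4mo and 9mo leaned the other way than at 14mo. At 4mo 9 of 39 and at 9mo 10 of 39 stood higher than at 2mo, with medians of -0.13 and -0.14 against 0.03 and 0.02 over all genes, while at 14mo 24 of 39 stood higher with a median of 0.03. In the same comparisons 1, 1 and 6 of 15 mitotic markers stood higher. Of 30 other replication genes, 0 were called by edgeR in any of these comparisons of age or in the trends described next.

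A trend over age was then fitted on the 22 stimulated mice fed ad libitum in the second set. In oocytes 1 member, Pole, was called, where 0.672% of 25006 genes were, and in cumulus cells 0 were (0.475% of 26304). At an unadjusted p under 0.05 there were 8 and 1 members, where 3054 and 2948 of all genes were. DESeq2 called 1 and 0 members, where it called 379 and 310 of all genes. Pole encodes the catalytic subunit of polymerase epsilon, which copies the leading strand. Its level ran from 63.5 to 70.7 CPM over the 5 mice at 2mo (median 68.4), from 66.8 to 85.9 over the 8 at 4mo (median 70.8), from 67.3 to 84.8 over the 4 at 9mo and from 76.7 to 87.0 over the 5 at 14mo (median 80.8). The 14mo mice all stood above the 2mo mice, as for 195 of all 25850 genes, and the 4mo and 9mo mice overlapped both. The slope was 0.0215 ± 0.0049 (SE) log2 units per month (adjusted p = 0.0265), and the difference of 14mo from 2mo was 0.28 ± 0.06 (adjusted p = 0.0512). The call of the slope was lost without 2mo1, 2mo34, 14mo37 or 14mo39, with a slope of 0.0190 to 0.0233 over the 22 mice left out in turn. In the same fit the cumulus and granulosa markers Inha (slope 0.11) and Inhbb (0.14), the steroid synthesis gene Hsd3b1 (0.15) and Ccnd2 (0.12) were called higher with age, and the summed cumulus markers in these oocytes were 104 ± 20 CPM at 2mo and 141 ± 17 at 14mo. In cumulus cells Pole was at 125 ± 20 CPM at 2mo and 138 ± 22 at 14mo, and the part of cumulus RNA in the oocyte slope was not tested. Over 10647 genes the difference of 14mo from 2mo ran with gene length (rho = 0.22) and against GC content (rho = -0.21). In first-set oocytes Pole was at 73.9 and 74.7 CPM in the young and at 54.1 and 73.8 in the old labels, which is the opposite order.

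Cdc45 had the next smallest p of the slopes. Its oocyte levels were 71.7 to 85.9 CPM at 2mo, 72.4 to 93.2 at 4mo, 66.3 to 73.9 at 9mo and 65.2 to 77.7 at 14mo, and the slope was -0.016 ± 0.005 (adjusted p = 0.14). Rfc4 was at 4.11 to 7.16 CPM at 2mo and 3.11 to 4.48 at 14mo, with 14mo lower by 0.61 ± 0.17 (log2 difference -0.61, adjusted p = 0.13) at low counts.

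**Figure D2:**
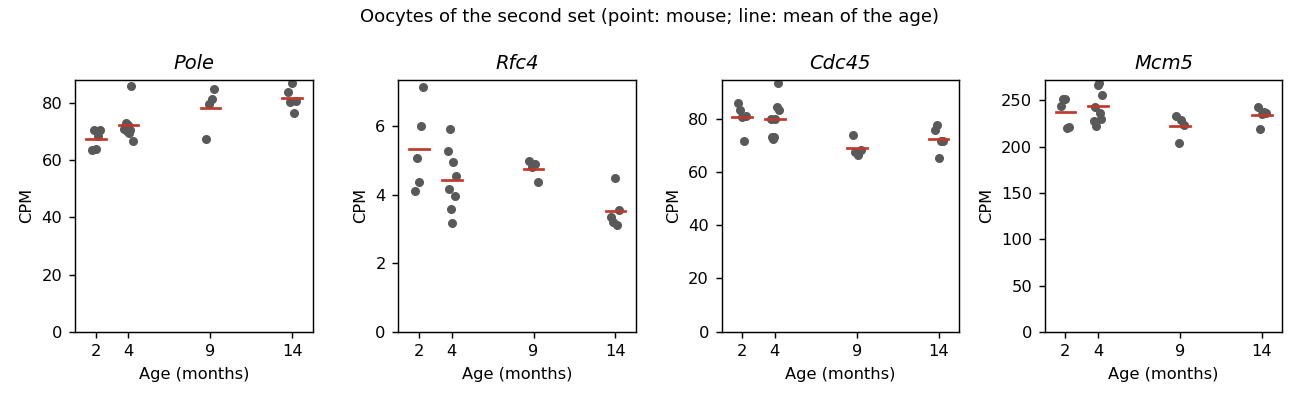
Levels of Pole, Rfc4, Cdc45 and Mcm5 (y axes, CPM) in oocytes of each mouse of the second set by age in months (x axis), with bars at the group means. Pole lies at 63.5 to 70.7 CPM at 2 months and 76.7 to 87.0 at 14 months, Cdc45 and Rfc4 lie lower at 14 months with overlap, and Mcm5 spans like values at every age.

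The effect of calorie restriction in oocytes was asked between CR and middle mice of the same age. Of the 39 members 7 were called, 5 higher and 2 lower, where 7.68% of all genes were called, 4.54% higher and 3.14% lower. ORC held 3 of the 5 that rose (Orc2, Orc3 and Orc5), with Rfc3 and Rrm1, and the 2 that fell were Rrm2 and Pola2, the accessory subunit of polymerase alpha. The median over all members was 0.05 against 0.01 over all genes, with 22 of 39 higher, so that members lay on both sides. DESeq2 called 10 members, the same 7 with Gins2, Mcm4 and Rfc2, where it called 3343 of 27124 genes. The summed level of ORC was 1100.0 ± 49.2 CPM in CR and 881 ± 115 in middle oocytes, and that of the helicase 991 ± 76 and 1017 ± 133. In every CR and middle mouse Orc5 made up the larger part of the ORC sum, so that this sum mostly follows Orc5.

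Orc2, a subunit of the ORC core, was at 102, 87.3 and 91.8 CPM in the 3 CR mice and at 54.7, 57.2, 61.4 and 54.1 in the 4 middle mice. The old and young labels were at 54.2 to 57.6 CPM, so that CR stood apart from every other group of the set. The difference was 0.72 ± 0.11 (1.65-fold, adjusted p = 0.0024), and it was called in each of 10 alternatives and 7 fits without 1 mouse. Its promoter window above held 0 E2F matches.

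Rrm1 was at 55.5, 59.6 and 63.2 CPM in CR mice and at 48.3, 36.1, 32.1 and 41.3 in middle mice (0.58 ± 0.14, adjusted p = 0.0234). Rfc3 was at 60.2, 61.6 and 71.7 CPM in CR and at 34.4, 48.9, 47.5 and 44.4 in middle mice (0.56 ± 0.15, adjusted p = 0.0332). Orc3, also of the ORC core, was at 70.2, 70.3 and 78.0 CPM in CR and at 51.9, 53.0, 64.2 and 45.6 in middle mice (0.45 ± 0.13, adjusted p = 0.0452). The groups did not overlap for any of these. Orc5, the most abundant member of oocytes by CPM, was at 593, 638 and 703 CPM in CR and at 429.8, 492, 555 and 421 in middle mice (0.44 ± 0.13, adjusted p = 0.0453).

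Rrm2 was lower, at 60.9, 64.1 and 59.9 CPM in CR mice and at 92.9, 83.6, 99.6 and 80.6 in middle mice (-0.53 ± 0.12, adjusted p = 0.0166). The small and the large subunit of ribonucleotide reductase were thus called in opposite directions. Pola2 was at 22.7, 26.8 and 30.7 CPM in CR and at 37.7, 39, 49.3 and 37.2 in middle mice (-0.59 ± 0.16, adjusted p = 0.0335). Groups that do not overlap were found for 5 members higher in CR (13.4% of all genes), the 5 called, and for 5 lower (8.61%), namely Rrm2, Pola2, Gins2, Mcm4 and Rfc2. Mcm4 was at 206 to 225 CPM in CR and 253 to 298 in middle mice (-0.36 ± 0.12, adjusted p = 0.0824).

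**Figure D3:**
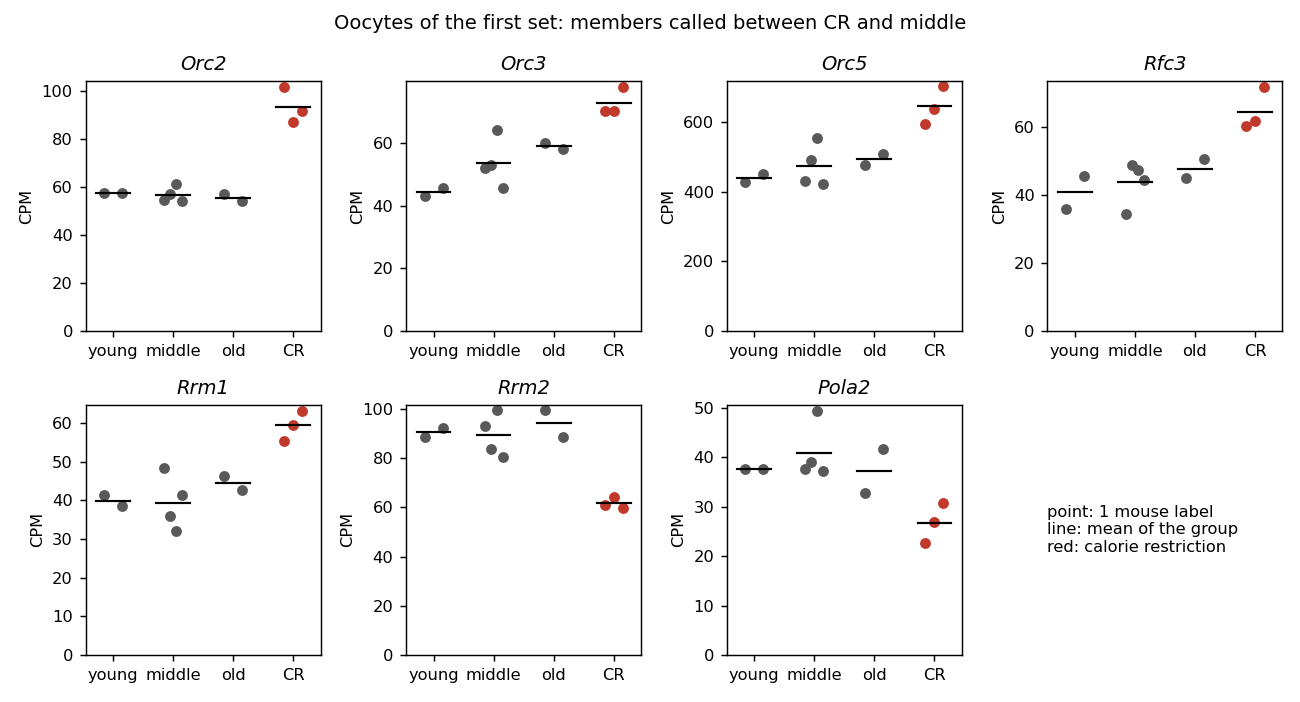
Levels of the 7 called members (y axes, CPM) in oocytes of each mouse label of the first set (x axis, young, middle, old and CR), with bars at the group means. Orc2 lies at 87.3 to 102 CPM in CR and at 54.1 to 61.4 in the other groups, and Rrm2 at 59.9 to 64.1 in CR and at 80.6 to 99.7 in the others.

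Without 1 mouse the number of called members ran from 1 (without CR1 or CR3) through 2 (CR2 or Middle2), 3 (Middle4) and 4 (Middle1) to 7 (Middle3). Median depth was 3578882 counts in CR and 2332126 in middle oocytes, and over 10991 genes the CR difference ran with gene length (rho = 0.28) and against GC content (rho = -0.43). With CR counts thinned to the depth of middle libraries 6 members were called, where 2099 of all genes were. After correction for length and GC 4 members were called (Orc2, Rfc3, Rrm2 and Mcm4), where 1971 of all genes were, with Orc3 then at 0.11, Orc5 at 0.10 and Rrm1 at 0.24. With the left-out complex put back among the middle mice, Orc2 alone of the members was called, where 789 of all genes were. With libraries as units 13 members were called, where 22.9% of all genes were. Among 30 other replication genes 3 were called higher in CR, namely Supt16 (0.47), a subunit of a histone chaperone, Dbf4 (0.48), which activates the CDC7 kinase, and Tipin (0.69), which protects forks, and 1 lower, Chtf18 (-0.87), of an alternative clamp loader. E2f4 (-0.71) was the called gene of the 19 E2F, RB and G1/S cyclin genes, and of the 15 mitotic markers Top2a was called higher (0.55) and Aurkb lower (-0.74). The summed cumulus and granulosa markers were 435 ± 147 CPM in CR and 434 ± 274 in middle oocytes, and with their share as a covariate the same 7 members were called. Diet and whatever else differed between the CR and middle libraries cannot be told apart.

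Cumulus cells of the same CR and middle mice gave 0 called members in edgeR, where 0.0718% of 26461 genes were called. DESeq2 called 6 members (Mcm10, Rrm2, Rpa1, Mcm4, Mcm5 and Cdt1), where it called 364 of all genes. At an unadjusted p under 0.05 there were 20 members, where 2795 of all genes were. Of the 20, 19 were higher in CR, where 6.19% of all genes were, and 1, Orc3, was lower. The members leaned one way as a group, with 35 of 39 higher and a median of 0.28 against 0.05 over all genes. All 6 helicase subunits, all 6 polymerase and primase subunits, all 6 clamp and loader genes, the 3 licensing and initiation factors, both lagging-strand genes and both reductase subunits stood higher in CR, as did 4 of 6 ORC genes, 4 of 5 CDC45 and GINS genes and 2 of 3 RPA genes. The CR and middle mice did not overlap for 17 members, all higher in CR, compared with 7.03% of all genes higher without overlap.

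Mcm10, which helps to start the helicase, was at 76.3, 75.5 and 63.8 CPM in the cumulus cells of the CR mice and at 47.2, 49.1, 43.3 and 40.2 in those of the middle mice (0.67 ± 0.12, adjusted p = 0.0829). Rrm2 was at 240.3, 209 and 222 CPM in CR and at 157, 149, 168 and 133 in middle mice (0.57 ± 0.12, adjusted p = 0.126). Mcm5 was at 405, 322 and 288 CPM in CR and at 204, 253, 182 and 246 in middle mice (0.61 ± 0.14, adjusted p = 0.149). In each of these the lowest CR mouse stood above the highest middle mouse. Rpa1 was at 159.8, 125 and 132 CPM in CR and at 89.7, 102, 88.3 and 100.9 in middle mice (0.54 ± 0.12, adjusted p = 0.133). Cdt1 was at 45.7, 53.4 and 41.5 CPM in CR and at 28.3, 31.4, 35.5 and 33 in middle mice (0.56 ± 0.14, adjusted p = 0.168), and the flap nuclease gene Fen1 at 46.6, 41 and 39.7 in CR and at 20.9, 29.3, 31.1 and 30.8 in middle mice (0.61 ± 0.16, adjusted p = 0.197). Orc3 had CR mice at 69.3, 78.8 and 81.8 CPM and middle mice at 77.5, 103, 109 and 92.3, with overlap (-0.31 ± 0.14, adjusted p = 0.45).

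The summed level of all 39 members in cumulus cells was 4006 ± 238 CPM in CR and 3208 ± 221 in middle mice, and that of the MCM2-7 helicase 1503 ± 133 and 1129 ± 117. Mitotic proliferation markers, genes of later cell cycle phases, were at 2993 ± 120 and 2875 ± 332 CPM, with 9 of 15 higher, a median of 0.06 and 0 called. Other replication genes were higher for 25 of 30 with a median of 0.29, deoxynucleotide and chromatin supply genes for 10 of 12 with a median of 0.34, and E2F, RB and G1/S cyclin genes for 16 of 19 with a median of 0.26, with 0 called in each list. Oocyte markers stood higher in CR for 11 of 12 tested, with a median of 1.69, although their sum had a median of 12.4 CPM (4.25 to 360) over CR cumulus libraries and 21.3 CPM (4.45 to 35.4) over middle ones, and Dppa3, Nobox and Zp3 were at 0 in middle cumulus cells. Median depth was 2019007 counts in CR and 1091806 in middle cumulus libraries. With CR counts thinned to the middle depth 34 of 39 members stood higher, with a median of 0.28 against 0.04 over all genes, and 0 were called as well. With libraries as units 16 members were called (15 higher and Orc3 lower), where 5.49% of all genes were.

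**Figure D4:**
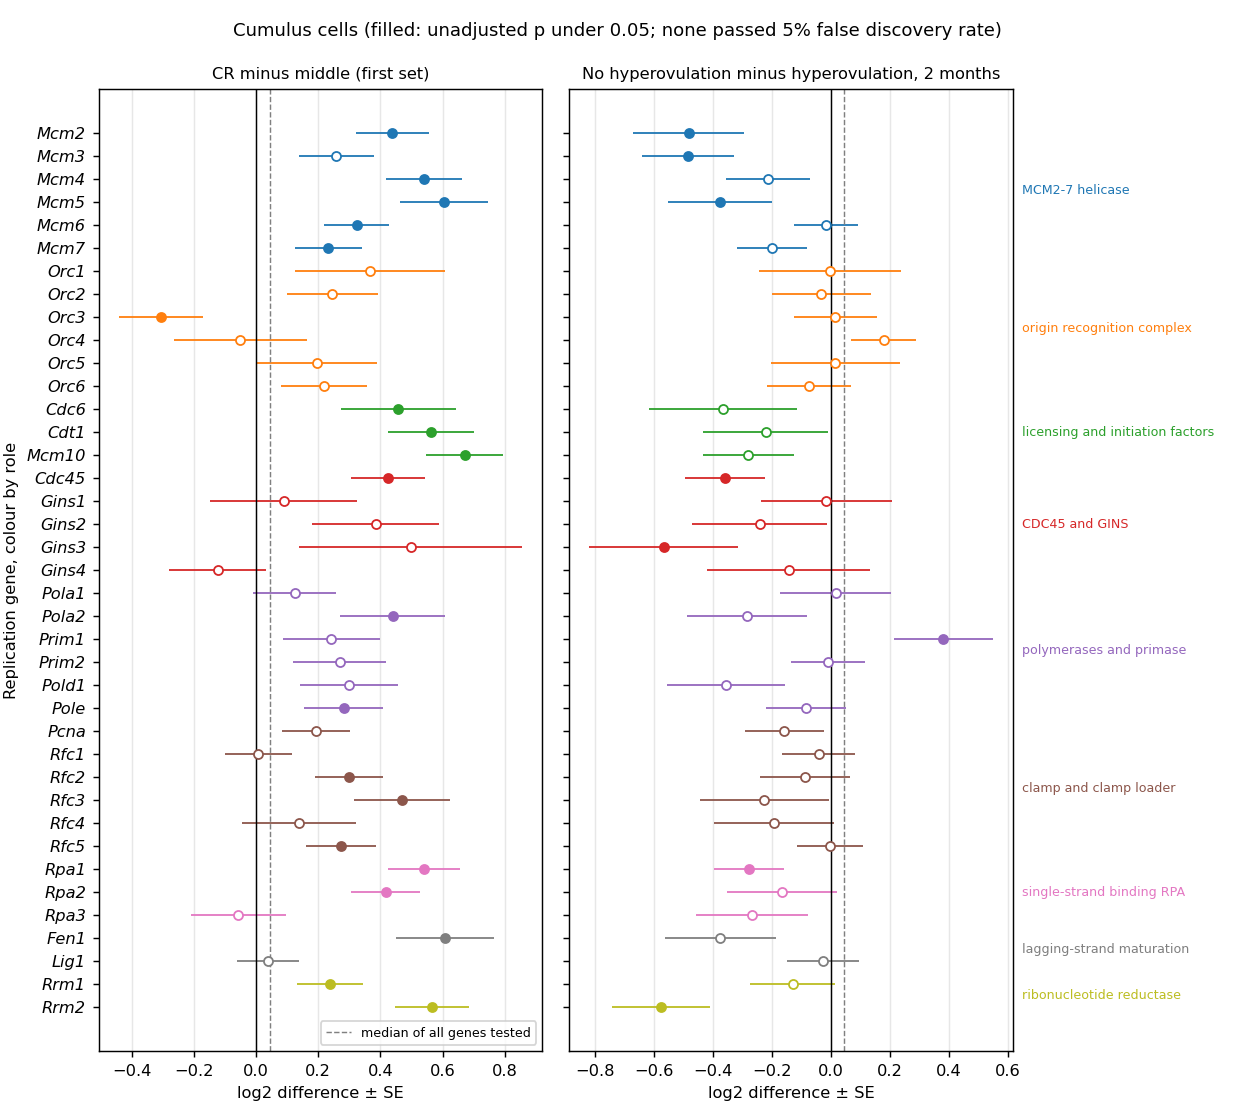
Log2 differences of the 39 members in cumulus cells (x axis, points with SE) for CR minus middle and for 2mo_noH minus 2mo, ordered by role, with filled points at an unadjusted p under 0.05 and dashed lines at the median of all genes (0.05 in each). In CR 35 of 39 points lie above 0, and in 2mo_noH 34 of 39 lie below.

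Whether ovarian stimulation alters the members was asked between 2mo_noH and 2mo mice. In oocytes 0 members were called and 0% of 25850 genes were, and DESeq2 called 0 members. At an unadjusted p under 0.05 there were 3 members (Rpa3, Gins3 and Pola1), where 1197 of all genes were. The summed level was 3634 ± 96 CPM in 2mo_noH and 3612 ± 53 in 2mo. In cumulus cells 0 members were called in edgeR, where 1.89% of 27237 genes were. DESeq2 called 2 members, Rrm2 and Mcm3, where it called 1059 of all genes. At an unadjusted p under 0.05 there were 8 members, where 4201 of all genes were. Of the 8, 7 were lower without stimulation (Rrm2, Mcm3, Mcm2, Mcm5, Cdc45, Gins3 and Rpa1), where 7.05% of all genes were, and Prim1 was higher. The members again leaned one way, with 34 of 39 lower and a median of -0.17 against 0.05 over all genes, and all 6 helicase subunits, all 6 clamp and loader genes and all 5 CDC45 and GINS genes stood lower.

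Rrm2 in cumulus cells ran from 105 to 179 CPM over the 8 mice without stimulation (median 133) and was at 145, 193, 199.8, 236 and 239.6 CPM in the stimulated mice. The groups overlapped, and the difference was -0.58 ± 0.17 (adjusted p = 0.0615). Mcm3 ran from 126 to 258 CPM without stimulation (median 170) and was at 220.0, 234, 248, 258 and 269 with it (-0.48 ± 0.16, adjusted p = 0.0986). Mcm2 ran from 89.9 to 226 CPM (median 149) and was at 167, 188, 215, 224 and 255 with stimulation (-0.48 ± 0.19, adjusted p = 0.19). The mouse 2moNoH6 was the highest of its group for each of these, and without it 2 members were called, as without 2moNoH7, while 1 was called without 2mo35. The summed helicase level was 963 ± 203 CPM in 2mo_noH and 1190 ± 155 in 2mo.

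In this comparison the mitotic markers moved too, with 15 of 15 lower, 13 at an unadjusted p under 0.05 and 2 called, the spindle assembly gene Tpx2 (-0.58 ± 0.16) and cyclin A2, Ccna2 (-0.51 ± 0.14), and a sum of 1911 ± 411 CPM against 2553 ± 272. The cumulus genes Inhba (-2.03), Cyp19a1 (-1.70), Inhbb (-1.59) and Fshr (-0.90), which respond to follicle-stimulating hormone or carry its signal, were called lower, and the endothelial gene Cdh5 (-2.15) as well. The summed cumulus and granulosa markers were 7072 ± 1585 CPM without stimulation and 10879 ± 1906 with it. Other replication genes stood lower for 23 of 30, with 0 called. With libraries as units 8 members were called, all lower, where 12.4% of all genes were.

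Whether these changes differed between the cell types was tested with an interaction term. For CR minus middle, 0 members differed between oocytes and cumulus cells at 5%, where 0.62% of 32407 genes did. At an unadjusted p under 0.05 there were 7 members, where 3998 of all genes were. DESeq2 called 9 members, where it called 1609 of all genes. Orc3 was the nearest, at 1.07 ± 0.26 (adjusted p = 0.0557), with 0.45 in oocytes and -0.31 in cumulus cells in the separate fits. Rrm2 differed in the other direction, by -0.78 ± 0.26 (adjusted p = 0.17), with -0.53 and 0.57. The median of the members was 0.01 and that of all genes 0.19, which other scalings moved by -0.28 (no TMM factors) and -0.22 (DESeq2), and relative to all genes the members stood at -0.19 here and at -0.22 and -0.26 there. With libraries as units 14 members were called, where 10.8% of all genes were. For 2mo_noH minus 2mo, 0 members differed, where 0.356% of 33123 genes did. At an unadjusted p under 0.05 there were 7 members, where 2809 of all genes were. DESeq2 called 1 member, Rrm2, where it called 618 of all genes. Rrm2 was at 0.60 ± 0.20 (adjusted p = 0.19), and 30 of 39 members had a higher difference in oocytes than in cumulus cells.

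The members and the mitotic markers were also set side by side over single libraries, as a description. The log2 sum of the MCM2-7 helicase ran with that of the mitotic markers in cumulus cells at r = 0.47 (rho = 0.43) over 71 libraries of the first set and at r = 0.55 (rho = 0.40) over 128 of the second, and the reductase at 0.57 and 0.70. ORC was at 0.01 and 0.29. The libraries share mice and groups, and the helicase sum ran with the log2 total count at r = 0.62 over the first set and 0.13 over the second. Within groups r ran from -0.32 (14mo, 16 libraries) to 0.71 (young, 15 libraries). In oocytes the helicase was at r = 0.19 over 73 libraries (rho = -0.19) and at -0.38 over 127 (rho = -0.12), and the roles differed. ORC was at r = 0.74 (rho = 0.75) and 0.63 (rho = 0.51) there, the clamp and its loader at 0.54 and 0.46, and all 39 members at 0.63 and 0.27, while the ORC sum ran with the log2 total count at r = 0.58 over the first set and -0.07 over the second.

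**Figure D5:**
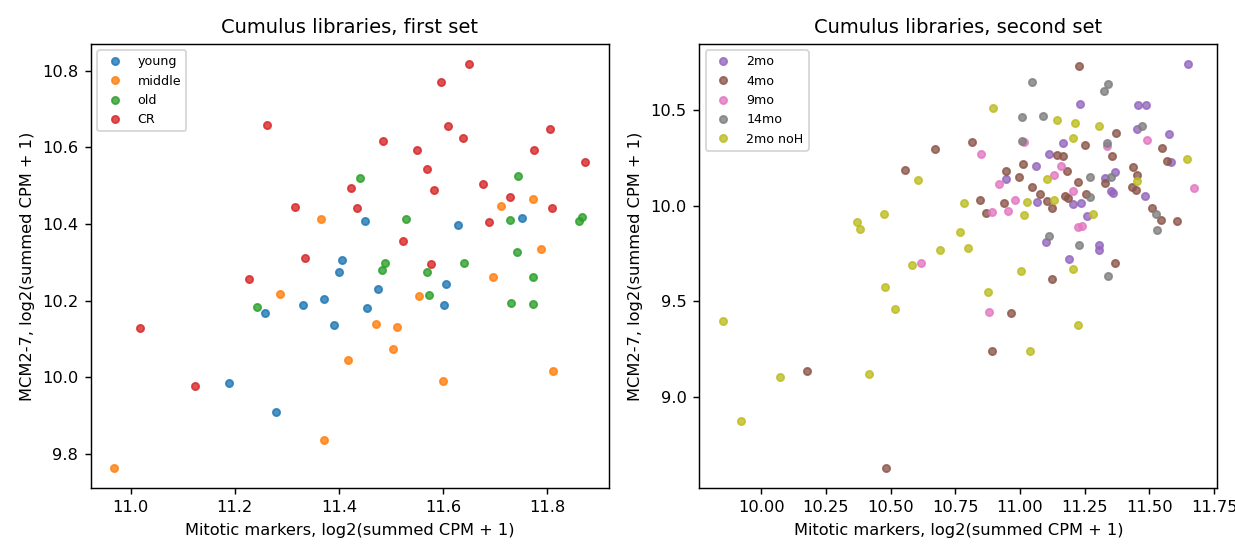
Log2 summed CPM of the MCM2-7 helicase (y axis) against that of 15 mitotic proliferation markers (x axis) in single cumulus libraries of the first and second set, coloured by group. The points rise together at r = 0.47 over 71 libraries and r = 0.55 over 128, and CR libraries hold many of the highest helicase sums of the first set.

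Members with the E2F letters in their promoter window were set beside those without. In CR cumulus cells the median difference was 0.32 over the 13 with and 0.25 over the 19 without, in 2mo_noH cumulus cells -0.22 and -0.17, and between oocytes and cumulus cells 0.37 and 0.79. These medians are given as a description and were not tested.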

How the data were processed

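Per the labels and the methods of the study, the authors trimmed RamDA-seq reads with Fastq-mcf, aligned them with HISAT2 2.0.5 to GRCm38 and counted them with featureCounts 1.5.1 against GENCODE vM15. They deposited estimated counts, in which multi-mapped reads are shared between genes (rounded here), and RPKM values. The RPKM of CR libraries matched their counts, within 1%, for 15.6% of the members' values and those of all other libraries for 100%. Counts were summed per mouse label and tested with edgeR 4.0.16 (TMM, quasi-likelihood, R 4.3.3) on genes counted in at least 5 libraries, with all groups of a set and cell type in 1 fit and Benjamini-Hochberg adjustment at 5%. DESeq2 1.42.0 and limma 3.58.1 (log2 of RPKM with a pseudocount of 1) served as alternatives. The fits were tested on simulated counts of 4 comparisons, CR oocytes, CR cumulus cells, 14mo oocytes and 2mo_noH cumulus cells. Of 100 genes changed 1.5-fold, 19, 16, 87 and 26 were recovered in this order. Of 100 changed 2-fold, 82, 60, 100 and 74 were recovered, and 14, 21, 12 and 1 unchanged genes were called. Oocyte and cumulus samples pair by the mouse in the labels, and the mouse was used as a block only in an alternative. No molecular identifiers were read, and 0 libraries were identical. The members and lists were chosen with earlier results of these data known. Called members are named, beyond 12 the 6 largest per direction with a mean of at least 8 CPM, with 12 members given in every group, and Cdc45, Rfc4 and the uncalled members with values were chosen after these were seen. Promoter sequences are RefSeq's (GRCm38.p6), and no window was found for Mcm4, Gins1, Gins2, Gins4, Prim2, Pole and Rfc2.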

Additional observations from a re-analysis of the deposited data

Results flagged for a closer look

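The summed level of each role was compared among the mice of each group of 4 to 10 mice, and in 5 of 120 such groups the highest or lowest mouse stood apart from the others by more than Dixon's 95% limit, where chance alone flags about 5% of groups. CDC45 and GINS genes summed to 211.0 CPM in oocytes of 14mo39, with the other 4 mice of 14mo at 226 to 231 CPM. The same genes summed to 259 CPM in oocytes of 4mo4, with the other mice at 233 to 244 CPM. Fen1 and Lig1 summed to 36.3 CPM in oocytes of Middle3, with the other middle mice at 54.2 to 56 CPM. Oocytes of Middle3 rest on 1 library after the other was left out, with 40 counts of Fen1 and 38 of Lig1. In cumulus cells of 2moNoH6 the licensing and initiation factors summed to 170.0 CPM, with the other mice without stimulation at 73.3 to 115 CPM. In the same mouse the polymerase and primase genes summed to 431 CPM in cumulus cells, with the others at 258 to 332 CPM.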

How the results depend on the processing

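Of 129 counts of called members under alternatives to the 19 comparisons, 108 were within 1.5 times the count reported and 21 moved. In 16 of the 19 comparisons the count reported was 0, and there a count within this limit is one that stayed at 0. Like counts can also hold different members, as the 33 called between oocytes and cumulus cells without TMM factors do. Under other scalings Mcm5 alone of the called members changed direction, without TMM factors between oocytes and cumulus cells. Leaving out TMM factors moved the median of all genes by 0.14 for old minus young oocytes. With single libraries in place of mice, 12 members were called for old minus young oocytes, 13 for CR oocytes, 16 for CR cumulus cells, 1 for 14mo oocytes, 2 for the oocyte age trend, 8 for 2mo_noH cumulus cells, and 14 and 4 for the differences between cell types under CR and 2mo_noH. DESeq2 called 6 members in CR cumulus cells, 2 in 2mo_noH cumulus cells, 1 in 14mo oocytes, and 9 and 1 for those differences. In CR oocytes, 1 member was called with all deposited libraries, 4 with limma on the deposited RPKM (whose CR values do not follow from the counts) and 4 after correction for length and GC. Without a filter on low counts 5 members were called in CR and 1 in 2mo_noH cumulus cells. Second-set titles start with B1 or B2, which was taken as a plate here although the labels do not say so. With this prefix as a covariate 1 was called in 14mo oocytes and 2 in 2mo_noH cumulus cells, and without TMM factors 4 for the difference under CR. The causes were not tested. Without 1 mouse, the counts ran from 1 to 7 in CR oocytes, from 0 to 1 for the oocyte trend, from 0 to 2 in 2mo_noH cumulus cells and from 34 to 35 between oocytes and cumulus cells, and stayed at 0 elsewhere. In the paired fit with the mouse as a replicate block, 35 members were called between oocytes and cumulus cells and 0 for either difference, which changed no call. The fits without TMM factors, on 2mo libraries alone, with the length and GC correction and with thinned CR counts were added after seeing the data. Groups of 2 to 8 mice, pooled cumulus cells and a second-set cumulus median of 43 counts per member limit what could be detected.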
